A study of Mus musculus with 10 samples.

Results

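The INO80-specific subunits are the proteins that mark out the INO80 chromatin remodelling complex from its relatives. The set held 10 genes: Ino80, Ino80b, Ino80c, Ino80e, Actr5, Actr8, Tfpt, Nfrkb, Mcrs1 and Uchl5. Members were taken by name, as every probe on the array that carried one of these symbols or an older name of the same gene. Ino80, Ino80b, Ino80c and Ino80e stand on the array as Inoc1, Znhit4, D030070L09Rik and Ccdc95. This gave 18 of 41174 probes. Of these, 16 passed the filter on dim probes (a signal well above background on both arrays of some group), and every member was among the 20663 genes tested. The probe used for each gene, its brightest, was well above background on all 10 arrays.

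INO80 slides nucleosomes along DNA, driven by the ATPase that Ino80 encodes. The actin-related proteins encoded by Actr5 and Actr8 and the small subunits encoded by Ino80b and Ino80c help couple ATP use to nucleosome movement. The products of Ino80e, Tfpt, Nfrkb, Mcrs1 and Uchl5 are subunits found in animals and not in yeast, and Uchl5 is a deubiquitinase that also works at the proteasome. In embryonic stem cells the complex is known for keeping genes of self-renewal active.

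RNA came from J1 mouse embryonic stem cells, an established line, collected 96 hours after siRNA transfection (day 4 in the labels). The 5 groups were a non-targeting siRNA (NT) and siRNAs against Ino80, Ino80b, Ino80c and Ino80e, with 2 arrays each that the design text calls biological replicates. Every group, NT included, shared the line, the medium used for transfection and the transfection itself. All data are from 1 cell line, and the siRNA sequences are not given in the sources used here. NT occupied slide 1, the Ino80 and Ino80b siRNA arrays slide 2, and the Ino80c and Ino80e siRNA arrays slide 3, so a difference from NT and a difference between slides cannot be told apart. Each level below is a log2 signal relative to the 75th percentile of its array. It can be compared between arrays for the same probe and not between probes.

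On each array 66.4% to 79.0% of probes were well above background, and the arrays of a group correlated at r = 0.987 to 0.993 across genes, which are not independent replicates. All 9 embryonic stem cell markers were well above background on all 10 arrays. Their summed linear level, in which the brightest markers weigh most, was 599 to 627 on the NT arrays, 411 to 502 with Ino80 siRNA, 500 to 584 with Ino80b siRNA, 579 to 588 with Ino80c siRNA and 653 to 729 with Ino80e siRNA. Of the 9 markers, 8, 8, 6 and 5 lay below NT with the Ino80, Ino80b, Ino80c and Ino80e siRNAs. In the same order 4, 3, 2 and 0 were called lower, beside 4.76%, 2.67%, 1.59% and 0% of all genes. The summed level of 9 fibroblast markers (7 of them well above background on all 10 arrays) was 8.11 to 9.73 with NT, 20.9 to 22.0 with Ino80 siRNA and 9.52 to 14.3 over the other groups. Among these, 5, 2, 3 and 0 were called higher in that order of siRNAs, beside 12.2%, 6.41%, 6.28% and 0% of all genes called in either direction. The summed level of 3 trophectoderm markers was 10.5 to 12.2 with NT, 30.05 to 42.7 with Ino80 siRNA and 15.5 to 22.7 over the other groups. With Ino80 siRNA Krt18 was at 1.68 and Cdx2 at 0.69 against NT, both called, and Cdx2 was called with Ino80c siRNA (0.56). Hand1 was at -0.58 to -0.01 over the 4 siRNAs, uncalled. Of the 3, then, 2, 0, 1 and 0 were called higher in that order of siRNAs, beside the same shares of all genes called in either direction. For 5 endoderm markers the sums were 1.68 to 2.06, 0.31 to 0.34 and 1.05 to 2.36. All 5 were called lower with Ino80 siRNA (4.76% of all genes) and 3 with Ino80b siRNA (2.67%), where Foxa2 was at 1.35, uncalled. Both of these lists were well above background on all 10 arrays. Of 4 neuroectoderm markers, only Nes was called, higher with Ino80 siRNA (1.24), and of 3 mesoderm markers none was called with any siRNA. The part of these marker shifts in the values of the subunits was not tested, and in bulk RNA fewer cells of a type and less RNA per cell cannot be told apart. The median of all genes lay above NT by 0.17, 0.13, 0.25 and 0.19 on the log2 scale with Ino80, Ino80b, Ino80c and Ino80e siRNA, and differences of single genes carry that shift.

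The targeted RNAs are read out by 60-base probes, and 3 of these are shown because the comparison of the knockdowns turns on them: the only probe of Ino80b, and the middle and 5′ probes of Ino80, which gave different sizes for the same knockdown. They are written 5′ to 3′ in lower case as the scanner files give them, with no base singled out, and on build mm7 all 3 match the minus strand.
Ino80b, chr6:83149452-83149511: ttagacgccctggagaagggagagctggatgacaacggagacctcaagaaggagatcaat
Ino80 middle, chr2:119123739-119123798: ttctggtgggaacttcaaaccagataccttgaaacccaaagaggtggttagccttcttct
Ino80 5′, chr2:119147677-119147736: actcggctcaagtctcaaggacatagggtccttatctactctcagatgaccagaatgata
The third and brightest Ino80 probe is the 3′-most of these, at chr2:119114157-119114216. The Ino80e probe lies at chr7:122948998-122949057, also on the minus strand. No exon annotation on mm7 was used here. The probes of Mcrs1, whose product is also part of a histone acetyltransferase complex, each carry 60 bases over 217 and 441 bases of genome, so both cross a splice junction.

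At the probe used for its gene, each targeted RNA was lowest on the 2 arrays of its own siRNA. Ino80 RNA, for the ATPase, stood at 2.43 and 2.35 with NT, 1.29 and 1.09 under the Ino80 siRNA, 2.72 and 2.71 under Ino80b, 2.53 and 2.60 under Ino80c, and 2.45 and 2.31 under Ino80e. Its own siRNA gave the only arrays below 2.31. Ino80c RNA, for the small subunit that partners the Actr5 protein, stood at 1.15 and 0.84 with NT, 1.12 and 1.24 under the Ino80 siRNA, 1.32 and 1.52 under Ino80b, -1.25 and -1.45 under Ino80c, and 1.49 and 1.53 under Ino80e. Here too the own pair stood clear of the other 8 arrays, which spanned 0.84 to 1.53. No Ino80c sequence is shown.

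Ino80e RNA stood at 5.03 and 4.43 with NT, 4.74 and 4.62 under the Ino80 siRNA, 5.16 and 4.99 under Ino80b, 5.11 and 4.42 under Ino80c, and 3.64 and 3.41 under Ino80e. The NT pair and the Ino80c siRNA pair differed within themselves by more than the other pairs, and the own pair was still below every other array. Ino80b RNA, for the other small subunit, stood at -1.39 and -1.16 with NT, -1.51 and -0.46 under the Ino80 siRNA, -3.04 and -3.52 under Ino80b, -2.41 and -2.37 under Ino80c, and -2.44 and -2.90 under Ino80e. Its own pair was again lowest, but the next 4 arrays down were those of the Ino80c and Ino80e siRNAs, all below both NT and both Ino80 siRNA arrays. Over all genes tested, 5.39%, 2.81%, 1.40% and 2.34% had both Ino80, Ino80b, Ino80c and Ino80e siRNA arrays, in this order, below the other 8.

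**Figure D1:**
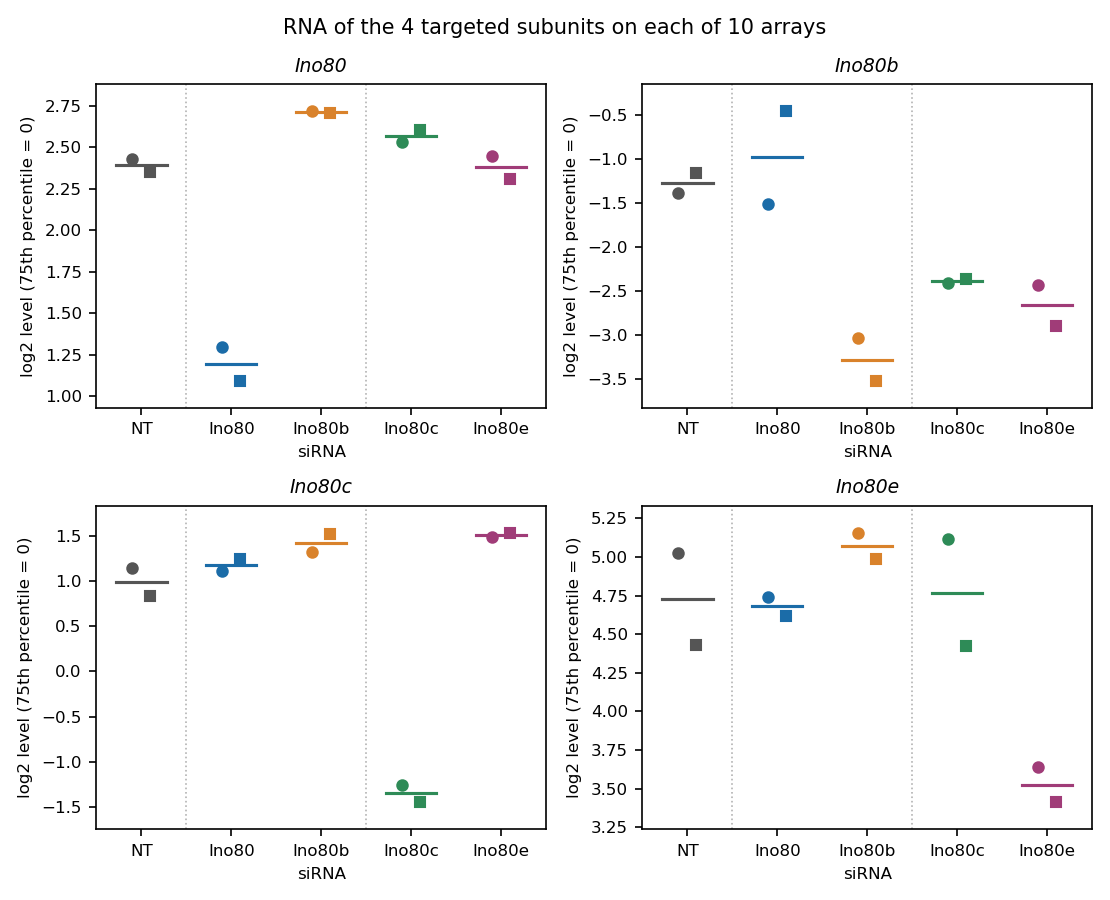
Log2 level (75th percentile of the array = 0) of the 4 targeted RNAs on each of the 10 arrays, by siRNA group; circles are replicate 1, squares replicate 2, bars the mean of the 2, and dotted lines part the 3 slides. At the probe plotted, each RNA is lowest under its own siRNA, and Ino80b RNA is also below NT on the 4 arrays of the Ino80c and Ino80e siRNAs.

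Against NT, limma fitted over all 10 arrays called 3 of the 4 targets lower (adjusted p under 0.05 over all genes, SE of the fit, n = 2 arrays a group), where 4.76%, 2.67%, 1.59% and 0% of all genes were called lower with the Ino80, Ino80b, Ino80c and Ino80e siRNAs. Ino80 RNA fell by 1.20 ± 0.13 on the log2 scale (adjusted p = 0.0041), Ino80b RNA by 2.00 ± 0.35 (adjusted p = 0.028; -1.35 with normexp background correction) and Ino80c RNA by 2.34 ± 0.16 (adjusted p = 0.0107). Ino80e RNA was at -1.20 ± 0.28, as large a difference as that of Ino80 with a wider error, and was not called (adjusted p = 0.0815). With Ino80e siRNA 0 of the 20663 genes tested were called against NT in either direction, so the missing call is not particular to this RNA. The Ino80 call kept an adjusted p of 0.0125 to 0.0283 with any 1 array left out. The Ino80b call was lost without NT replicate 2 (0.121), either Ino80b array (0.1 and 0.187), either Ino80c array (0.0583) or either Ino80e array (0.0522), and the Ino80c call without either Ino80c array (0.0776 and 0.0732).

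A comparison that used no NT array set each knockdown against the mean of the 3 others. Ino80 RNA fell by 1.36 ± 0.10 (adjusted p = 0.0048), Ino80c RNA by 2.72 ± 0.13 (adjusted p = 0.0018) and Ino80e RNA by 1.31 ± 0.22 (adjusted p = 0.0385), so the target that missed against NT was called here. Ino80b RNA was at -1.27 ± 0.28 and was not called (adjusted p = 0.342); 2 of its 3 reference groups had low levels themselves. The Ino80 call held with any 1 array left out (0.00955 to 0.0466), and the Ino80c call was lost without Ino80c replicate 2 (0.055). The Ino80e call was lost without either Ino80 array (0.0804 and 0.0696), either Ino80b array (0.106 and 0.0929), Ino80c replicate 1 (0.065) or either Ino80e array (0.169 and 0.359).

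Within slides, Ino80 RNA was lower with Ino80 siRNA than with Ino80b siRNA by a log2 difference of -1.52 ± 0.13 (adjusted p = 0.0194). Ino80c RNA was lower with Ino80c siRNA than with Ino80e siRNA, at -2.86 ± 0.16 (adjusted p = 0.0052), or -2.25 with its probes averaged. Ino80b RNA in the reverse contrast was at -2.30 ± 0.35 (adjusted p = 0.135) and Ino80e RNA at -1.24 ± 0.28 (adjusted p = 0.162), and neither was called. The Ino80 call held without an NT array and was lost without any of the 8 others (adjusted p from 0.0624 to 0.229). The Ino80c call was lost without Ino80c replicate 2 (0.0898) or either Ino80e array (0.0638 and 0.141). Thus Ino80 and Ino80c RNA were called lower against all 3 references, Ino80b RNA against NT alone, and Ino80e RNA against the other knockdowns alone. These calls also depend on the adjustment within each comparison. It left 14 genes called between the Ino80 and Ino80b siRNAs, and 416 with Ino80e siRNA against the other knockdowns. Some alternatives given in the closing section called Ino80e RNA against NT.

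**Figure D2:**
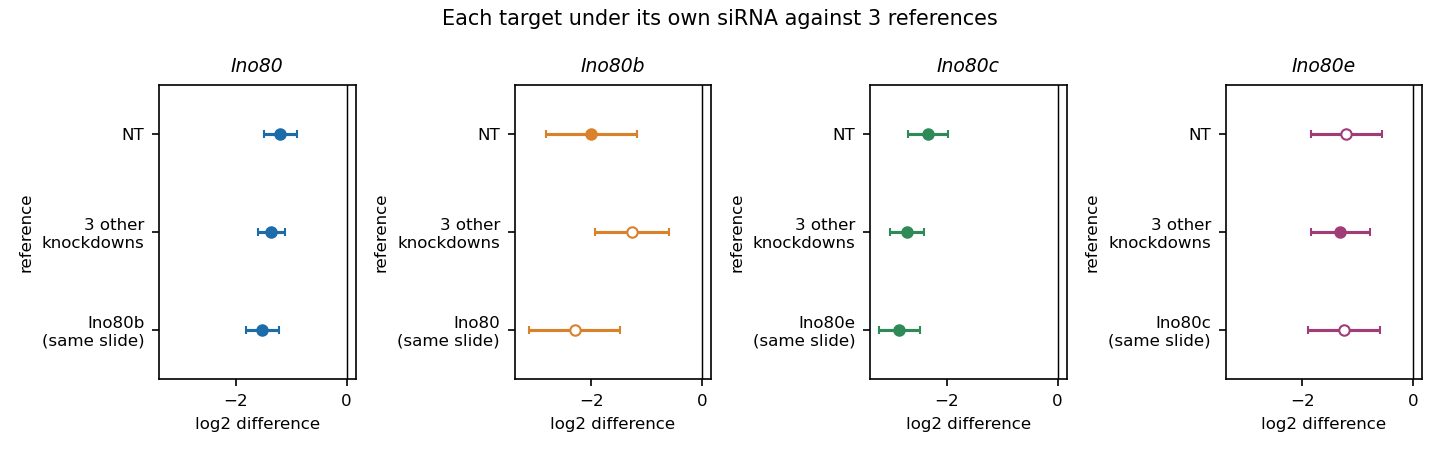
Log2 difference of each target under its own siRNA from NT, from the mean of the 3 other knockdowns, and from the knockdown on its slide; points are limma estimates, bars 95% intervals, filled points an adjusted p under 0.05. All 12 points lie below 0, between -1.20 and -2.86.

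The probes of 1 gene did not give the same size. With Ino80 siRNA, the 3′, middle and 5′ probes of Ino80 were at -1.20 ± 0.13, -0.47 ± 0.17 and -0.92 ± 0.20 against NT. With every probe tested on its own, the 5′ probe was called (adjusted p = 0.0318) and the middle one was not (adjusted p = 0.114), where 11.6% of all probes were called. The level of the middle probe was 0.30 and 0.01 with NT, -0.42 and -0.20 under the Ino80 siRNA, 1.11 and 1.11 under Ino80b, 0.79 and 0.70 under Ino80c, and 0.40 and 0.07 under Ino80e. It was thus lowest in its own knockdown, and against the 3 other knockdowns it was called lower (-1.01 ± 0.14, adjusted p = 0.0252). The 5′ probe was not called against the other knockdowns (-0.65 ± 0.16, adjusted p = 0.12). Its levels with Ino80 siRNA were -2.17 on both arrays, and 1 of the Ino80e siRNA arrays lay below them. With any 1 array of the Ino80, Ino80b, Ino80c or Ino80e siRNAs left out the call of the middle probe was lost (0.0544 to 0.126). The call of the 5′ probe against NT was lost without any 1 array of the NT, Ino80, Ino80b or Ino80c groups (0.0535 to 0.125).

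With Ino80b siRNA that middle probe rose by 0.96 ± 0.17 (adjusted p = 0.0307, with 5.76% of probes called), while the 3′ and 5′ probes gave 0.32 ± 0.13 and 0.30 ± 0.20 and were not called. The call of the middle probe was lost without NT replicate 2 (0.121) or any 1 array of the Ino80b, Ino80c or Ino80e siRNAs (0.0527 to 0.193). The 5′ probe of Ino80 was at -0.80 ± 0.20 with Ino80e siRNA (adjusted p = 0.0881), where the other probes gave -0.01 and 0.08. The levels of the 5′ probe there were -1.77 and -2.34, both below the NT values of -1.21 and -1.31. The dimmer probe of Ino80c fell by 1.63 ± 0.20 with Ino80c siRNA (adjusted p = 0.0202, with 4.80% of probes called), less than the brighter one, and this call was lost without NT replicate 2 (0.0875) or either Ino80c array (0.105 and 0.111). With Ino80e siRNA that dimmer probe gave 0.01 ± 0.20, against 0.52 ± 0.16 for the brighter.

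A further probe at the Ino80e gene, filed under the transcript ENSMUST00000032928 and described on the array as a cDNA of Ccdc95, was named after its values were seen. It lies at chr7:122948237-122948296 on the strand of the Ino80e probe. Its levels were 2.94 and 2.40 with NT, 2.71 and 2.33 under the Ino80 siRNA, 3.14 and 2.75 under Ino80b, 2.62 and 2.17 under Ino80c, and 1.35 and 1.14 under Ino80e. The order of the arrays was close to that of the Ino80e probe, with the own pair lowest. Its difference with Ino80e siRNA was -1.43 ± 0.26 from NT (adjusted p = 0.0729) and -1.38 ± 0.21 from the other knockdowns (adjusted p = 0.0286), so it too was called in the second comparison and not in the first. The call was lost without Ino80 replicate 1 or any 1 array of the Ino80b, Ino80c or Ino80e siRNAs (difference -1.48 to -1.27). The probe of Doc2a overlaps that of Ino80e by 51 bases on the opposite strand, and Doc2a was at 0.56 ± 0.31 with Ino80e siRNA (adjusted p = 0.267). Whether RNA of one strand adds to the signal of the other was not tested.

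**Figure D3:**
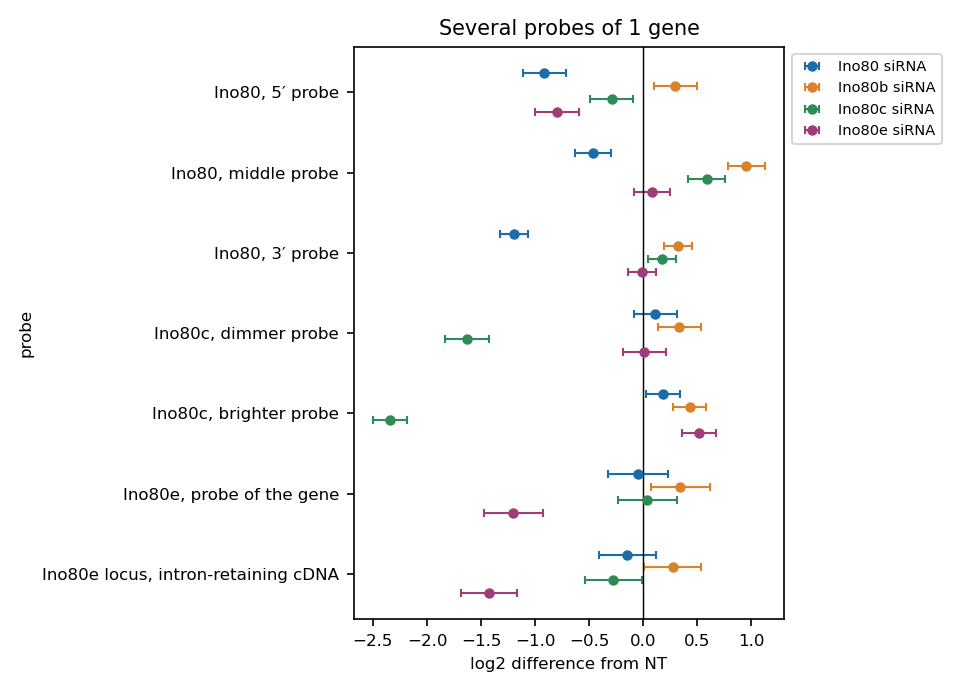
Log2 difference from NT for each probe of Ino80 and Ino80c and for the 2 probes at the Ino80e gene, by siRNA. Points are limma estimates with every probe tested on its own (for the second probe at the Ino80e gene, 1 probe a gene), and bars are SE. The Ino80 probes range from -1.20 to -0.47 with Ino80 siRNA and from 0.30 to 0.96 with Ino80b siRNA.

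The other side of the design is the RNA of each subunit when a different subunit was targeted, which makes 36 combinations of a member and an siRNA. Limma called 1 of them, Uchl5 with Ino80 siRNA, and 9 had an unadjusted p under 0.05. The share of all genes at that unadjusted p was not computed, so such counts, here and below, are not read as an excess. Together with the targets, 2 of 10 members were called with Ino80 siRNA, where 12.2% of all genes were. With Ino80b siRNA 1 of 10 was called (6.41% of all genes), with Ino80c siRNA 1 of 10 (6.28%), and with Ino80e siRNA none of 10 (0% of all genes), where 4 members had an unadjusted p under 0.05. The median difference of the 9 members not targeted was 0.01 with Ino80 siRNA, 0.32 with Ino80b siRNA, 0.01 with Ino80c siRNA and -0.01 with Ino80e siRNA, beside 0.17, 0.13, 0.25 and 0.19 for all genes.

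Against the other knockdowns, 2 members were called with Ino80 siRNA (1.40% of all genes), none with Ino80b siRNA (0.0194%, with 4 members at an unadjusted p under 0.05), 1 with Ino80c siRNA (0.0581%) and 2 with Ino80e siRNA (2.01%). The calls that were not targets were a higher Ino80b RNA with Ino80 siRNA (1.80 ± 0.28, adjusted p = 0.0343) and a higher Ino80c RNA with Ino80e siRNA (1.09 ± 0.13, adjusted p = 0.0135). The reference of each included the knockdown of that very RNA. Within slides the only members called were the targets named above, 1 of 10 in each comparison, where 0.0678% (slide 2) and 0.0339% (slide 3) of all genes were called.

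**Figure D4:**
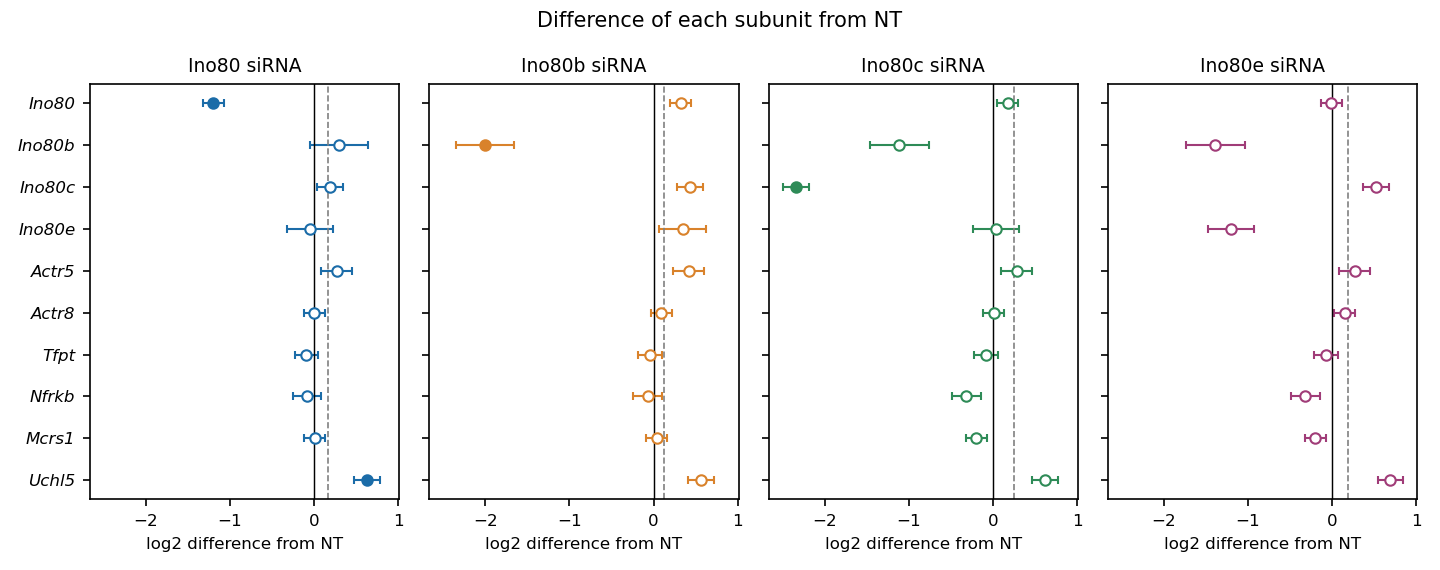
Log2 difference of the 10 subunit RNAs from NT under each siRNA; points are limma estimates, bars SE, filled points an adjusted p under 0.05, and the dashed line the median of all genes. Apart from the targets, the filled point is Uchl5 with Ino80 siRNA, and Ino80b RNA lies at -1.11 and -1.39 with Ino80c and Ino80e siRNA.

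The level of Uchl5 RNA lay above NT in all 4 knockdowns and was called higher in 1. Its level was 4.50 and 4.34 with NT, 4.89 and 5.20 under the Ino80 siRNA, 4.91 and 5.04 under Ino80b, 5.07 and 5.01 under Ino80c, and 5.01 and 5.20 under Ino80e. All 8 knockdown arrays lay above both NT arrays, as they did for 19.0% of all genes. The difference from NT was 0.63 ± 0.15 with Ino80 siRNA (adjusted p = 0.0417), and 0.56, 0.62 and 0.69 with the Ino80b, Ino80c and Ino80e siRNAs (each ± 0.15, adjusted p = 0.0714, 0.0579 and 0.0808). With a replicate block all 4 were called (adjusted p = 0.0269, 0.045, 0.0361 and 0.0452), as they were with normexp background correction and with a trend and robust prior.

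The 4 knockdowns did not differ detectably from each other in Uchl5. Each one's difference from the mean of the other 3 lay between -0.09 and 0.09, with 95% intervals that together spanned -0.38 to 0.38. The comparisons with NT share the same 2 NT arrays on a slide of their own, so they are not separate evidence. The call with Ino80 siRNA held with Ino80 replicate 1 left out and was lost without any 1 of the 9 other arrays (difference 0.47 to 0.71, adjusted p from 0.051 to 0.174). Uchl5 is measured by 1 probe, at chr1:143732995-143733054.

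Ino80b RNA also stood below NT in both knockdowns on slide 3. It was at -1.11 ± 0.35 under the Ino80c siRNA and at -1.39 ± 0.35 under the Ino80e siRNA, that is 46.3% (95% interval 26.2% to 81.7%) and 38.2% (21.6% to 67.4%) of NT, and neither was called (adjusted p = 0.0907 and 0.0888). With Ino80 siRNA it was at 0.29 ± 0.35. The only probe of Ino80b is dim, with processed signals of 89.4 to 154 on slide 3 and 324 and 383 with NT. The size of the slide 3 differences changed with background correction, as given below for normexp. Both slide 3 groups were low by similar amounts, with a difference between them of 0.28 ± 0.35 (adjusted p = 0.855), and whether the slide or the siRNAs carry the shift cannot be told apart. Of 22 alternatives, 5 called the Ino80c siRNA value and 3 the Ino80e siRNA value. In that order, normexp gave -0.83 and -0.94 (limma adjusted p = 0.0379 and 0.027). The value table of the authors gave -1.07 and -1.24 (0.0342 and 0.0395), and the trend and robust prior -1.11 and -1.39 (0.0489 and 0.0406). Leaving out either Ino80 array also brought the Ino80c siRNA value, at -1.11, past the threshold.

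Nfrkb and Mcrs1, whose products are subunits of the animal-specific module, also had their lowest levels on slide 3. Mcrs1 RNA stood at 3.104 and 3.22 with NT, 3.25 and 3.08 under the Ino80 siRNA, 3.21 and 3.18 under Ino80b, 2.99 and 2.95 under Ino80c, and 3.04 and 2.88 under Ino80e. All 4 slide 3 arrays were below the 6 others, which held for 0.803% of genes, and the second Mcrs1 probe had the same split, with levels of 1.99 to 2.13 on slide 3 and 2.16 to 2.42 elsewhere. Splits by slide, here and in the next paragraph, were not among the planned comparisons. Both probes read the same RNA on the same arrays, so the second is not separate evidence. The differences from NT were small, at -0.20 ± 0.13 with either siRNA, and were not called (adjusted p = 0.319 and 0.331).

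Nfrkb RNA stood at 0.59 and 0.52 with NT, 0.66 and 0.28 under the Ino80 siRNA, 0.55 and 0.42 under Ino80b, 0.22 and 0.26 under Ino80c, and 0.37 and 0.10 under Ino80e. Slide 3 was below NT throughout and overlapped only the lower of the Ino80 siRNA arrays. The differences from NT were -0.31 and -0.32, each ± 0.17 (adjusted p = 0.244 and 0.251). Ino80b, Mcrs1 and Nfrkb were the 3 of 10 members with all 4 slide 3 arrays below both NT arrays, where 11.1% of genes had this. The dimmer Nfrkb probe did not follow the slides, at -0.60, -0.64, -0.64 and -0.52, each ± 0.30, with the Ino80, Ino80b, Ino80c and Ino80e siRNAs. The levels of Nfrkb and Mcrs1 correlated over the 10 arrays (r = 0.889), which describes arrays that share slides and groups.

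Actr8 and Tfpt were the flattest members. Actr8 RNA, for the actin-related protein that binds near the start of the ATPase, ranged from 3.33 to 3.56 over all 10 arrays. That range of 0.24 was smaller than in all but 0.615% of genes. Tfpt RNA ranged from 0.82 to 1.09, a range of 0.27 at percentile 1.29. Differences from NT lay between -0.002 and 0.15 for Actr8 and between -0.09 and -0.04 for Tfpt, with SE of 0.12 and 0.14. The 95% intervals over the 4 knockdowns reached from -0.29 to 0.44 for Actr8 and from -0.43 to 0.29 for Tfpt, so shifts within them are not excluded. After adjustment over all genes, larger shifts could also have gone uncalled. The dimmer Actr8 probe gave -0.20 to 0.0008.

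Actr5 RNA, for the actin-related protein that contacts the nucleosome core, stood at 2.22 and 1.86 with NT and between 2.11 and 2.54 on the 8 knockdown arrays. Its pair of NT arrays differed by more than any knockdown pair except that of Ino80 siRNA. The differences from NT were 0.26 to 0.42, each ± 0.18, and were not called (adjusted p from 0.181 to 0.362). The median of all genes lay 0.13 to 0.25 above NT in the same comparisons. The second Actr5 probe stayed at background on every array.

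**Figure D5:**
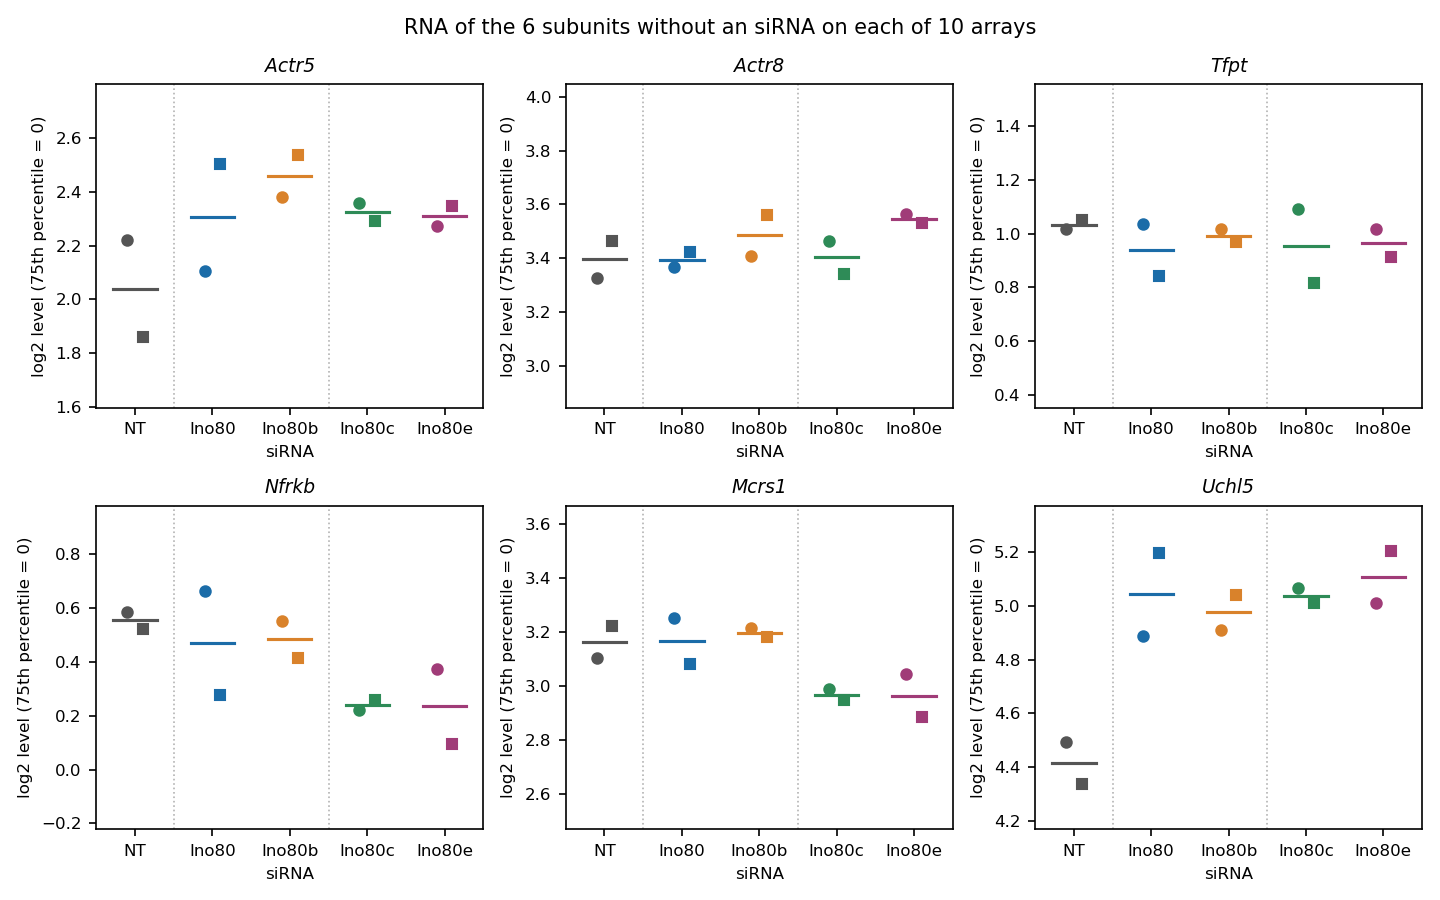
Log2 level (75th percentile of the array = 0) of the 6 subunit RNAs without an siRNA on each of the 10 arrays, by siRNA group; circles are replicate 1, squares replicate 2, bars the mean of the 2, dotted lines part the slides, and all panels span the same height on the log2 scale. Uchl5 is above NT on all 8 knockdown arrays, and Actr8 and Tfpt span 0.24 and 0.27.

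Counted by non-overlap with NT, 12 of the 36 combinations without a target lay above both NT arrays and 6 below. With Ino80 siRNA 1 of 9 was above and none below, where 35.4% and 18.6% of genes were. With Ino80b siRNA 4 of 9 were above and none below (37.1% and 21.2% of genes), with Ino80c siRNA 3 and 3 (44.2% and 16.0%), and with Ino80e siRNA 4 and 3 (40.7% and 17.1%). Separation from NT on so few arrays was therefore common among all genes.

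INO80 shares further subunits with other complexes, listed here as Ruvbl1 and Ruvbl2 (the paired AAA+ ATPases), Actl6a and Actb (actin-related protein and actin), the transcription factor gene Yy1, and Ino80d, which was not analysed here. Of the 5 tested, Actl6a fell with Ino80 siRNA (-0.47 ± 0.12, adjusted p = 0.0422), where 12.2% of all genes were called, and none was called with the Ino80b, Ino80c or Ino80e siRNAs, where 2, 2 and 1 had an unadjusted p under 0.05. Another probe of Actl6a gave 0.10 ± 0.23 with Ino80 siRNA, and the call was lost with any 1 of the 10 arrays left out (0.0763 to 0.154). Ruvbl1 and Ruvbl2 lay on opposite sides of NT throughout, at 0.35 to 0.47 and -0.48 to -0.31, uncalled, and another Ruvbl1 probe gave -0.06 to 0.01. Actb was at -0.39 to -0.09, with another probe at -0.05 to 0.37, and Yy1 at -0.27 to -0.10, with the other probes at -0.30 to -0.03 and at 0.21 to 0.36. With the probes of a gene averaged, Actb was above NT with the Ino80b, Ino80c and Ino80e siRNAs (0.07 to 0.11).

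Of 18 genes of related complexes and substrates, 16 were tested: subunits of the SRCAP, TIP60 and NSL complexes, proteasome subunits that work with Uchl5, and H2A variants. Vps72, which encodes a subunit that binds H2A.Z in the SRCAP complex, fell with Ino80 siRNA (-0.95 ± 0.24, adjusted p = 0.0468; 1 of 16 called, beside 12.2% of all genes) and was at -0.877, -0.998 and -0.955 with the other siRNAs, each uncalled. The Vps72 call was lost without NT replicate 2 (0.179), Ino80 replicate 2 (0.165) or any 1 array of the Ino80b, Ino80c or Ino80e siRNAs (0.0776 to 0.0802), while its direction held in all 22 alternatives for each siRNA. No other gene of the list was called against NT. At an unadjusted p under 0.05 there were 3, 6, 3 and 8 with the Ino80, Ino80b, Ino80c and Ino80e siRNAs, again with no share of all genes to set beside them. The list's median difference was 0.03, 0.01, 0.002 and 0.11, below that of all genes each time.

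As a description, the genes whose levels followed each member most closely over the 10 arrays were sought among 17433 genes well above background on every array. Uchl5 was followed by Tmed2 (Pearson r = 0.994, Spearman rho = 0.952), Lyar and Lgalsl, and Mcrs1 by Cdc25a (0.980, 0.988), BF165830 and Traf6. Nfrkb was followed by Map6 (0.970, 0.939), Hnrpab and Dctd, and Actr5 by DV045548 (0.965, 0.976), Asph and Csnk1d. For the targets the closest were the second probe at the Ino80e gene for Ino80e (0.972, 0.915), then Cacnb3 and Shroom3, and Cpne5 for Ino80 (0.944, 0.588), then Mrps5 and Haus7. Bap1, Efnb3 and Gfus were closest to Ino80c (0.906 and 0.685 for Bap1), and Ube2h, C130039O16Rik and Lnpk to Ino80b (0.901 and 0.903 for Ube2h). Tfpt was followed by Fastkd5 (0.924, 0.818), Mta2 and Zgpat, and Actr8 by Rpl37 (0.859, 0.842), Polr2e and Gtf2h4. No subunit of the set was among the 3 closest genes of another. These arrays share groups and slides, and the highest of so many correlations is large by selection.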

How the data were processed

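RNA of 10 samples was hybridised to Agilent 4x44K arrays. The deposited files hold a green channel only, though the dye in the labels is Cy5. Per the file headers, Feature Extraction 9.5.3.1 quantified the spots, and the deposited scanner files give their intensity as a processed signal, background-subtracted and detrended within the array. The value table that the authors deposited is in log2, equal to the log2 mean signal plus an array-wide constant of unstated origin, so its scaling between arrays is unknown. Its column medians lay between 6.76 and 6.87.

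Control spots, flagged spots and 31 probes that lost every spot of an array to flags were left out. Spots of a probe were log2 transformed, averaged and set relative to the 75th percentile of the array, taken over all non-control spots, flagged ones included. Probes detected above background on both arrays of any group were kept (29587), and the brightest stood for its gene. Names came through accessions in the RefSeq table (assembly GRCm38.p6, names only) for 22951 of 41174 probes, of which 5141 got an updated symbol; coordinates are those of the scanner files (mm7). Limma 3.58.1 in R 4.3.3 fitted group over all 10 arrays, with 5 residual and 2.23 prior degrees of freedom. Two-sided p-values were Benjamini-Hochberg adjusted over 20663 genes, or 29587 probes where every probe was tested on its own. The number of arrays limits the precision.

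The genes named were all members, all shared subunits, genes of the related list called against NT in any knockdown, and the 3 genes closest to each member by Pearson r; the second Ino80e probe and Doc2a were added after their values were seen. The members and lists were chosen with earlier results of these data known. Alternatives were normexp background correction, quantile and median scaling, the authors' table, filters on dim probes, averaged probes, other variance settings, a replicate block, fewer arrays, and leaving out each array.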

Additional observations from a re-analysis of the deposited data

How the results depend on the processing

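No target changed direction in any alternative run, and no called value of another member did; 14 uncalled combinations of a member and an siRNA changed sign in at least 1 alternative. The Ino80 call against NT held in all but 1 of 12 alternatives other than leaving out an array, and its call against the other knockdowns held in all 12.

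With normexp background correction, Ino80b RNA was at -1.35 against NT, still called, Ino80e RNA was called against NT (-1.23), Ino80b RNA against Ino80 siRNA (-1.61) and Ino80e RNA against Ino80c siRNA (-1.24), and 7 combinations outside the targets were called in place of 1. In the authors' deposited table Ino80e RNA was called against NT (-1.41), with 4 such combinations. A trend and robust prior called Ino80e RNA against NT (-1.20) and Ino80b RNA against Ino80 siRNA (-2.30), with 6 combinations. Without the filter on dim probes, Ino80b RNA against NT (-2.004), Ino80e RNA against the other knockdowns (-1.31) and Ino80 RNA against Ino80b siRNA (-1.52) were not called, with 0 combinations. With only probes well above background on all 10 arrays there were 3, and with the array median or array weights 0. With only the arrays compared, which leaves fewer samples, no call was made against NT or within a slide: Ino80 (-1.20), Ino80b (-2.004) and Ino80c (-2.34) against NT, Ino80 against Ino80b siRNA (-1.52), Ino80c against Ino80e siRNA (-2.86), and 0 combinations. The Ino80, Ino80c and Ino80e calls against the other knockdowns held there. Apart from that, the cause was not tested. The Uchl5 call with Ino80 siRNA held in 9 of 22 alternatives, over which the difference ran from 0.47 to 0.78.

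With a replicate block, Ino80e RNA was called against NT (-1.20) and against Ino80c siRNA (-1.24), with 4 combinations, all of them Uchl5, and it changed no other target call. Over all genes it moved the calls against NT from 2531 to 4888 (Ino80), 1325 to 3590 (Ino80b), 1297 to 3712 (Ino80c) and 0 to 1973 (Ino80e). Deviations of arrays with the same number correlated at 0.004 to 0.32 between groups, not all over 0.1, and the labels do not say what a number marks, so the numbers were not taken to pair the arrays.

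Leaving out each array in turn, with a lone array assumed to vary like the other groups, gave -2.24 to -1.76 for Ino80b and -2.49 to -2.19 for Ino80c against NT. Against the other knockdowns it gave -2.81 to -2.62 for Ino80c and -1.43 to -1.20 for Ino80e. Within slides it gave -1.62 to -1.42 for Ino80 and -2.96 to -2.76 for Ino80c, and 0 to 2 combinations outside the targets were called.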
